A study of Mus musculus with 10 samples.

Results

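The transcripts of 7 genes of liver glycogen metabolism were followed over 4 times of day and along the liver lobule in single mouse hepatocytes, the main cells of the liver parenchyma. The members were taken by name from the deposited entries gys2, ppp1r3b, ppp1r3c, ppp1r3g, pygl, ugp2 and gbe1 (written Gys2 and so on from here), 7 of the 14812 gene entries deposited for 18378 cells. All 7 had UMIs in every library, and all 7 were above the filter of a mean of 3 CPM (UMIs scaled to a library total of 1000000). The study asked how hepatocyte gene expression varies with the time of day, with the place of a cell in the lobule, and with both.

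The cells came from male C57BL/6 mice aged 3 months that ate regular chow freely, were anaesthetized with ketamine and xylazine, and gave hepatocytes by collagenase perfusion and a Percoll gradient. The groups were zeitgeber times, hours in the light-dark cycle with ZT0 by convention at lights on: 3 libraries at ZT0 (A, B, C), 2 at ZT6 (A, B), 3 at ZT12 (A, B, C) and 2 at ZT18 (A, B). No genotype or agent other than the time distinguished the groups. The number of mice behind a library is not given in the labels, so p-values measure the spread between these libraries. Food intake was not recorded in the labels, so the time of day and the time since feeding cannot be told apart.

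Glycogen is the glucose store of the liver, filled after meals and emptied between them. Ugp2 makes UDP-glucose, the building block; Gys2, the liver glycogen synthase, extends the chains; Gbe1, the branching enzyme, adds branch points. Pygl, the liver glycogen phosphorylase, releases glucose 1-phosphate from the chains. Ppp1r3b (GL), Ppp1r3c (PTG) and Ppp1r3g encode targeting subunits that bring protein phosphatase 1 to glycogen, where removal of phosphate activates the synthase and inactivates the phosphorylase.

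The libraries held 1454623 to 7144803 UMIs, 710 to 2860 cells and 1588 to 2662 UMIs in the median cell. ZT12A held the fewest UMIs and the highest mitochondrial share of UMIs (24.3%, against 12.9% to 21.5% in the other libraries). Hepatocyte markers were present in every group (7 of the 8 listed, 36513 to 69797 CPM in sum). Macrophage markers summed to at most 6.46 CPM, with Clec4f, Csf1r, C1qa and C1qb at 0, and lymphocyte markers to at most 0.609 CPM. Endothelial markers summed to 53.1 to 89.5 CPM, with Clec4g and Ptprb at 0. Stellate markers (8 of 8 in the files) summed to 3.42 to 12.3 CPM and cholangiocyte markers (5 of 6) to 5.79 to 117.8 CPM. Erythroid markers (5 of 6) summed to 72.2 to 107.9 CPM at ZT0, ZT6 and ZT12 and to 99.0 and 360.5 CPM at ZT18; their part in the results was not tested. Because sums over many cells are compared, more expressing cells and more RNA per cell cannot be told apart.

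Across the day, transcripts of the synthase rose from ZT0 to ZT12, those of Ppp1r3b were at their lowest at ZT6, and those of Ppp1r3g had their highest mean at ZT6. In edgeR's quasi-likelihood F-test, adjusted after Benjamini and Hochberg, 3 of 7 members differed among the 4 times: Ppp1r3b (adjusted p = 0.0057), Gys2 (adjusted p = 0.018) and Ppp1r3g (adjusted p = 0.044). Over all genes the same test called 586 of 8908, or 6.58%. Ppp1r3c (adjusted p = 0.054), Ugp2 (0.063), Pygl (0.18) and Gbe1 (0.54) did not pass it. The letters A, B and C in the titles were taken to pair the ZT0 with the ZT12 libraries, from correlations between libraries in these same data. As a block, the letter was fitted over all libraries, so it also grouped those of ZT6 and ZT18 by letter. With the letter as a block, 5 of 7 were called against 11.1% of all genes; the block added Ppp1r3c (edgeR adjusted p = 0.0029) and Ugp2 (edgeR adjusted p = 0.018). Ugp2 also passed with DESeq2 (adjusted p = 0.0073) and with library size alone in edgeR (adjusted p = 0.024).

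**Figure D1:**
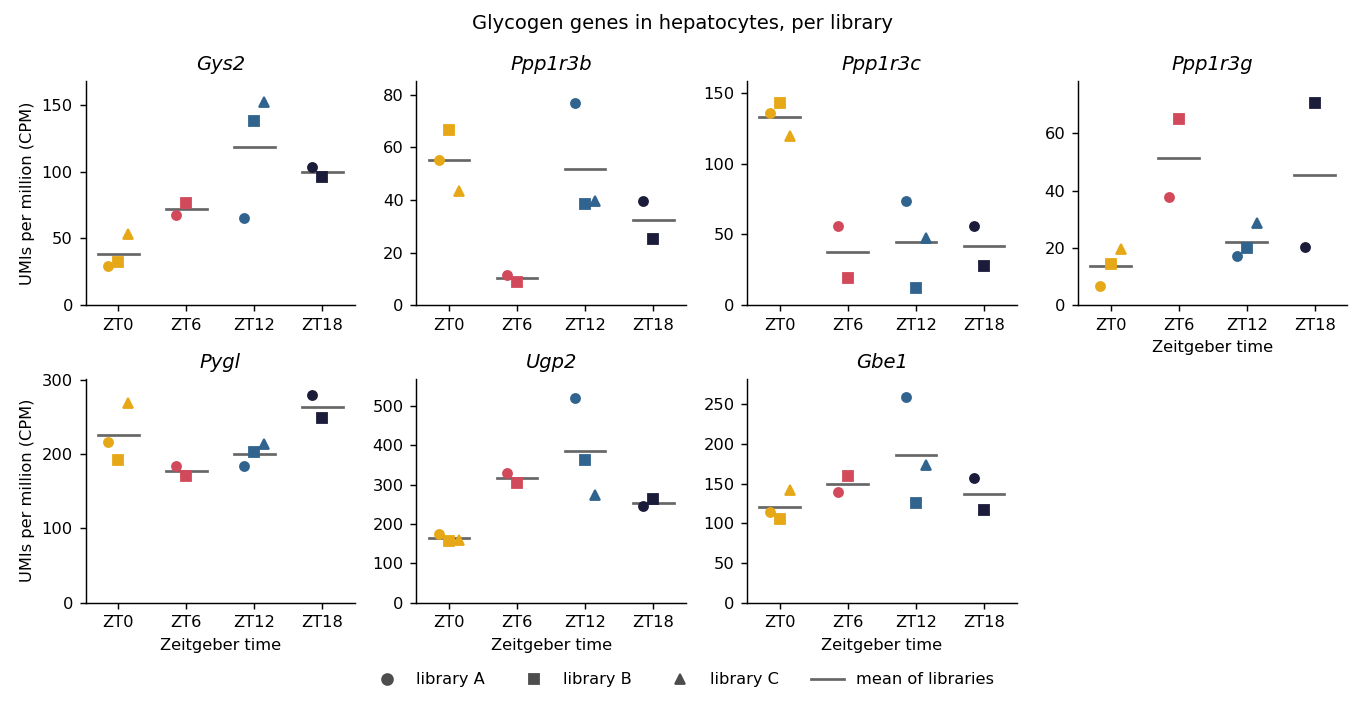
CPM in each library (y axis) at the 4 zeitgeber times (x axis) for the 7 genes; symbols mark the library letter and bars the mean of the libraries. Gys2 rises from 38.2 to 118 CPM between ZT0 and ZT12, and Ppp1r3b has both ZT6 libraries, 8.89 and 11.4 CPM, below all others.

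Gys2 (chromosome 6, 142422613 to 142473109, minus strand, GENCODE M21 on GRCm38, as for all genes here) measured 29.1, 32.0 and 53.5 CPM in ZT0A, ZT0B and ZT0C. It measured 67.2 and 76.5 CPM at ZT6, 65.3, 138.0 and 152.1 CPM at ZT12, and 103.1 and 95.7 CPM at ZT18. Every ZT0 library was below every library of the other times, and ZT12A was the lowest of its group. The mean rose from 38.2 ± 13.3 to 118 ± 46.6 CPM (SD, n = 3 each) between ZT0 and ZT12, 1.51 ± 0.28 on the log2 scale (SE; edgeR adjusted p = 0.0071), where 3.44% of all genes were called. ZT0 was also below ZT18 by 1.39 ± 0.30 on the log2 scale (edgeR adjusted p = 0.041; 1.11% of all genes called). The rise from ZT0 to ZT12 was called without any 1 of the 10 libraries, with log2 differences of 1.32 to 1.77. The difference between ZT0 and ZT18 was lost without any 1 of ZT0A, ZT0B, ZT6A, ZT6B, ZT18A and ZT18B, with an edgeR adjusted p up to 0.30, and with library size alone in place of TMM (edgeR adjusted p = 0.058). Its call among the 4 times was lost without ZT0B (edgeR adjusted p = 0.056) or ZT18B (edgeR adjusted p = 0.051).

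A 24-h cosine was called for 1 of the 7 members, Gys2, against 5.14% of all genes. Its log2 amplitude, from the mean to the peak, was 0.80 and its fitted peak lay at ZT 13.3 (edgeR adjusted p = 0.026). The call was lost without ZT0A, ZT0B, ZT12B or ZT12C, with an edgeR adjusted p of at most 0.083. Ugp2 (fitted peak at ZT 11.2, edgeR adjusted p = 0.053), Ppp1r3c (ZT 23.55, adjusted p = 0.12) and Pygl (ZT 19.7, adjusted p = 0.12) did not pass in edgeR. DESeq2 called the rhythm of Ugp2 (adjusted p = 0.0059) and of Pygl (adjusted p = 0.012) as well as that of Gys2. With the letter as a block the edgeR test called 3 members, Gys2, Ppp1r3c (adjusted p = 0.029) and Ugp2 (adjusted p = 0.015), against 8.41% of all genes. With samples 6 h apart, a 24-h wave and a brief pulse look alike to this test.

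Among the targeting subunits, Ppp1r3b (chromosome 8, 35375739 to 35388139, plus strand) had the clearest dip. It measured 55.2, 66.7 and 43.2 CPM at ZT0, 11.4 and 8.89 CPM at ZT6, 77.0, 38.5 and 39.7 CPM at ZT12, and 39.6 and 25.3 CPM at ZT18. Both ZT6 libraries lay below all 8 others. Ppp1r3b fell by 2.52 ± 0.38 on the log2 scale from ZT0 to ZT6 (edgeR adjusted p = 0.0058; 0.718% of all genes called). It rose by 2.26 ± 0.38 from ZT6 to ZT12 (edgeR adjusted p = 0.022; 0.595% called) and was 1.73 ± 0.40 higher at ZT18 than at ZT6 (edgeR adjusted p = 0.03; 3.79% called). These differences, like the test among the 4 times, were lost when ZT6A or ZT6B was left out (edgeR adjusted p up to 0.29), which leaves 1 library at ZT6 that is assumed to vary like the others. The difference between ZT18 and ZT6 was also lost without ZT18A or ZT18B. Over all single omissions the log2 change from ZT0 to ZT6 lay between -2.71 and -2.37.

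The mean of ZT0 and ZT12 minus the mean of ZT6 and ZT18 is 0 for a pure 24-h cosine on the log scale, while a daily pattern of another shape, such as a single dip, can give a value. This 12-h contrast was called for 1 of 7 members, Ppp1r3b, with a log2 value of 1.52 ± 0.25 (SE; edgeR adjusted p = 0.013), against 0.505% of all genes. Without ZT6A, ZT6B or ZT18B this call was lost (edgeR adjusted p up to 0.12). Ppp1r3g had a value of the opposite sign, -1.53 ± 0.33 (SE), that did not pass (edgeR adjusted p = 0.06). With the letter as a block both were called, Ppp1r3g with -1.77 ± 0.22 (edgeR adjusted p = 0.0013), against 0.943% of all genes; DESeq2 also called both.

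Ppp1r3g (chromosome 13, 35958839 to 35970388, plus strand) measured 6.63, 14.4 and 19.4 CPM at ZT0, 37.8 and 64.9 CPM at ZT6, 17.2, 20.01 and 28.6 CPM at ZT12, and 20.1 and 70.6 CPM at ZT18. Both ZT6 libraries lay above every ZT0 and ZT12 library, and the ZT18 libraries stood apart from each other. No pair of times passed edgeR's test without a block for Ppp1r3g, and the log2 difference of ZT6 from ZT0 was 1.86 ± 0.46 (SE; edgeR adjusted p = 0.073). With the letter as a block 4 pairs passed, among them ZT6 against ZT0 with 2.16 ± 0.28 (edgeR adjusted p = 0.0016). DESeq2 called ZT6 against ZT0 (adjusted p = 0.0050) and ZT0 against ZT18 (adjusted p = 0.0068). Its call in the test among the 4 times was lost without any 1 of ZT0A, ZT0B, ZT6A, ZT6B, ZT12A, ZT12B and ZT12C (edgeR adjusted p up to 0.13).

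Ppp1r3c (chromosome 19, 36731731 to 36736653, minus strand) measured 136.1, 143.0 and 119.9 CPM at ZT0, 56.1 and 19.3 CPM at ZT6, 73.6, 11.8 and 47.7 CPM at ZT12, and 56.3 and 27.8 CPM at ZT18. The 3 ZT0 libraries were above all 7 others. The log2 difference of ZT12 from ZT0 was -1.83 ± 0.51 (SE, edgeR adjusted p = 0.071). With the letter as a block it was -2.07 ± 0.37 and passed (edgeR adjusted p = 0.0046, with 5.66% of all genes called). ZT12B, at 11.8 CPM, was the lowest library of all. The test among the 4 times passed without ZT12B (edgeR adjusted p = 0.021) and without ZT12A (edgeR adjusted p = 0.036), and without ZT12A the 24-h rhythm passed as well (edgeR adjusted p = 0.038).

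The make-up of the subunit transcripts is given as shares of the UMIs of these 3 genes, with no test. Ppp1r3c took 66.1% ± 2.52 (SD, n = 3) at ZT0, in a summed level of 201.5 ± 21.0 CPM. At ZT6 the sum was 99.2 ± 8.58 CPM (SD, n = 2) and Ppp1r3g took 35.9% in ZT6A and 69.7% in ZT6B, with Ppp1r3b at 10.8% and 9.54%. At ZT12 Ppp1r3b took 45.0% ± 10.3 (SD, n = 3) of a sum of 118 ± 48.8 CPM. The ZT18 libraries were unlike each other, with Ppp1r3c at 48.5% and 22.4% and Ppp1r3g at 17.3% and 57.1% in A and B.

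**Figure D2:**
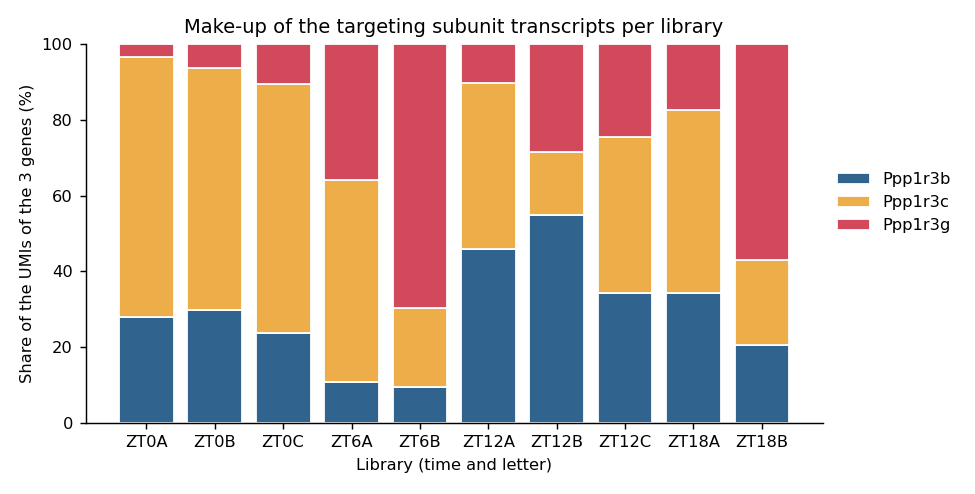
Share of the summed UMIs of Ppp1r3b, Ppp1r3c and Ppp1r3g (y axis, percent) taken by each gene in each of the 10 libraries (x axis, time and letter); the bars add to 100%. Ppp1r3c takes 63.8% to 68.8% in the ZT0 libraries and at most 53.3% in any other.

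The region before the start of a subunit gene is shown for Ppp1r3c and Ppp1r3g, which had their highest and their lowest mean, respectively, at ZT0. Both come from RefSeq on GRCm38.p6 and are the 250 bases upstream of RefSeq's start, 5′ to 3′ on the gene's strand. For Ppp1r3g that start lies inside the gene as GENCODE bounds it, so the whole stretch shown is within the GENCODE gene. For Ppp1r3c the 3′ end of the stretch overlaps the 5′ end of the GENCODE gene. Promoter entries were found for 5 of the 7 members: Gbe1, Ppp1r3c, Ppp1r3g, Pygl and Ugp2. Capitals mark CACGTG, the E-box letters that clock factors are known to bind.
Ppp1r3c, chr19:36736605-36736854, minus strand: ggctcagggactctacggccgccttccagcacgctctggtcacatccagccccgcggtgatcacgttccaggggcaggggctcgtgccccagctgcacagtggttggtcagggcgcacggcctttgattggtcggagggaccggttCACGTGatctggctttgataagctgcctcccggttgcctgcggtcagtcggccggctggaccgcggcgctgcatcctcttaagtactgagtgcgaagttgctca
Ppp1r3g, chr13:35967656-35967905, plus strand: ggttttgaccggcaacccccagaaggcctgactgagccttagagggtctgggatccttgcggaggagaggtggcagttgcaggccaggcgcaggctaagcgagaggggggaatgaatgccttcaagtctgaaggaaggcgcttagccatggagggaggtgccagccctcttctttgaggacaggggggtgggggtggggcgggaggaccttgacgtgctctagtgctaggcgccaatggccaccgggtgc
Of the 4 motifs searched on both strands in windows from 250 bases before to 50 after the start, CACGTG, TTATGTAA (D-box), TGACGTCA (CRE) and GTAAACA (FOXO), the member entries held 1 match. It was CACGTG in Ppp1r3c, 104 bases before the start. CACGTG is found in 7.15% of 32851 promoters, TTATGTAA in 0.938%, TGACGTCA in 1.79% and GTAAACA in 3.65%; the search did not look for overlaps between motifs.

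Ugp2 (chromosome 11, 21321138 to 21371201, minus strand) measured 174.2, 157.5 and 158.2 CPM at ZT0, 328.9 and 303.7 CPM at ZT6, 519.0, 361.5 and 274.1 CPM at ZT12, and 244.9 and 263.3 CPM at ZT18. The ZT0 libraries were below all others. Ugp2 rose by 1.10 ± 0.25 on the log2 scale from ZT0 to ZT12 (edgeR adjusted p = 0.025), from 163.3 ± 9.43 to 384.9 ± 124.1 CPM (SD, n = 3 each). The call was lost without ZT12A, the highest library, where the log2 difference was 0.80 ± 0.21 (edgeR adjusted p = 0.079), and also without ZT0B, ZT0C or ZT12B. Without ZT12C, the lowest library of its time, Ugp2 passed the test among the 4 times (edgeR adjusted p = 0.023) and that of a 24-h rhythm (edgeR adjusted p = 0.013). Vps54, on the other strand, ends next to the 3′ end of Ugp2 (21239281 to 21321136), and whether the counting used strand is not given in the sources used here.

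Pygl and Gbe1 passed no comparison between times. Pygl (chromosome 12, 70190811 to 70231488, minus strand) measured 216.6, 191.4 and 268.3 CPM at ZT0, 183.9 and 170.8 CPM at ZT6, 184.2, 203.1 and 213.4 CPM at ZT12, and 278.8 and 248.4 CPM at ZT18. Both ZT18 libraries lay above those of ZT6 and ZT12, with a log2 difference from ZT6 of 0.65 ± 0.22 (SE; edgeR adjusted p = 0.12). Gbe1 (chromosome 16, 70313949 to 70569716, plus strand) measured 113.6, 104.9 and 142.3 CPM at ZT0, 140.0 and 159.6 CPM at ZT6, 258.5, 126.0 and 173.7 CPM at ZT12, and 157.5 and 117.2 CPM at ZT18. Its groups overlapped, with ZT12A the highest library.

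The balance of synthase to phosphorylase transcripts was lowest at ZT0. The ratio of Gys2 to Pygl UMIs was 0.135, 0.167 and 0.199 in the ZT0 libraries, 0.366 and 0.448 at ZT6, 0.354, 0.680 and 0.713 at ZT12, and 0.370 and 0.385 at ZT18. Every ZT0 library was below every other library; the ratio was not tested. UMIs at 3′ ends count transcripts, not protein.

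Over the 6 pairs of times, 6 of 42 member comparisons passed, all of them of Gys2, Ppp1r3b and Ugp2, against 2.42% over all genes. With the letter as a block 14 of 42 passed, against 4.36% over all genes. The absolute log2 difference of the members had a median of 0.86 for ZT6 against ZT0 and of 0.57 for ZT12 against ZT0, beside 0.27 and 0.25 over all genes. For ZT12 against ZT6 the medians were 0.25 and 0.28. These comparisons share libraries.

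The number in the 10x sample index, a label of the library preparation, is shared by ZT0A and ZT12A, by ZT0C and ZT12C, and by ZT0B, ZT6A, ZT6B and ZT12B. Both ZT18 libraries have a number of their own, so that number and ZT18 cannot be told apart. With the index number as a block and without ZT18, the edgeR test among 3 times called Gys2 (adjusted p = 0.0062), Ppp1r3b (0.0024), Ppp1r3c (0.043), Ppp1r3g (0.021) and Ugp2 (0.012). Over all genes it called 457 of 8901. The same fit called 588 of 8901 genes for ZT12 against ZT0, 79 for ZT6 against ZT0 and 34 for ZT12 against ZT6. In that fit ZT12 differed from ZT0 by 1.48 ± 0.20 on the log2 scale for Gys2 (edgeR adjusted p = 0.0021) and by 1.04 ± 0.17 for Ugp2 (edgeR adjusted p = 0.0047). Ppp1r3b fell by 2.53 ± 0.30 from ZT0 to ZT6 (edgeR adjusted p = 0.0040) and rose by 2.21 ± 0.31 from ZT6 to ZT12 (edgeR adjusted p = 0.014). Ppp1r3g was higher at ZT6 than at ZT0 by 1.82 ± 0.32 (edgeR adjusted p = 0.033), and Ppp1r3c fell by 2.06 ± 0.47 from ZT0 to ZT12 (edgeR adjusted p = 0.025). Neither difference passed in edgeR without a block, while DESeq2 without a block called that of Ppp1r3g. In this fit ZT6 was tied to the other times only through the number it shares with ZT0B and ZT12B.

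Hepatocytes of a lobule lie between a portal and a central vein, and glycogen is handled all along that line. Cells of each library were ordered by 8 periportal and 8 pericentral landmark genes, none of them a member, and the order was cut into 3 equal zones. The outer zones, called pericentral and periportal here, were compared with the library as a block. Levels and counts of libraries per zone use CPM of the zone's own total, without TMM factors. Ppp1r3g was higher in the pericentral zone and Gys2 higher in the periportal zone; Pygl and Gbe1 showed small differences in opposite directions. The edgeR test called 4 of 7 members, against 24.8% of all genes (12% higher and 12.8% lower in the periportal zone). With library size alone in place of TMM, the split of calls over all genes moved from 48.3% to 27.9% higher periportal. The median difference over all genes moved from -0.006 to -0.105 (log2).

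Ppp1r3g measured 9.83 to 89.8 CPM in the pericentral zones (median 30.9) and 5.03 to 58.0 CPM in the periportal zones (median 8.19). It was lower in the periportal zone in 10 of 10 libraries. The log2 difference, periportal minus pericentral, was -0.92 ± 0.16 (SE; edgeR adjusted p = 3.0e-05), and it was called without any 1 library (-1.05 to -0.82). Counts were small in places, with 3 UMIs in the periportal zone of ZT12A and 4 in that of ZT12C.

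Gys2 measured 26.4 to 109.8 CPM in the pericentral zones (median 59.8) and 29.6 to 212.5 CPM in the periportal zones (median 85.8). It was higher in the periportal zone in 9 of 10 libraries, all but ZT18B. The log2 difference was 0.45 ± 0.09 (SE; edgeR adjusted p = 2.7e-04), called without any 1 library (0.38 to 0.51). Both calls were also made by DESeq2 and with library size alone, where Gys2 differed by 0.35 and Ppp1r3g by -1.04.

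Pygl measured 169.7 to 277.3 CPM in the pericentral zones (median 202.7) and 169.5 to 282.9 CPM in the periportal zones (median 215.3). It was higher in the periportal zone in 7 of 10 libraries, by 0.18 ± 0.06 on the log2 scale (edgeR adjusted p = 0.035). The difference was 0.084 with library size alone (edgeR adjusted p = 0.36), and it was lost without ZT0B, ZT0C, ZT12B or ZT18B (edgeR adjusted p up to 0.093). Gbe1 measured 116.6 to 298.1 CPM in the pericentral zones (median 155.8) and 95.0 to 224.6 CPM in the periportal zones (median 131.3). It was lower in the periportal zone in 8 of 10 libraries, by -0.20 ± 0.07 on the log2 scale (edgeR adjusted p = 0.037), a call lost without any 1 of ZT0A, ZT0B, ZT0C, ZT6B, ZT12A, ZT12C and ZT18A (edgeR adjusted p up to 0.12). DESeq2 called neither Pygl (adjusted p = 0.056) nor Gbe1 (adjusted p = 0.082).

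**Figure D3:**
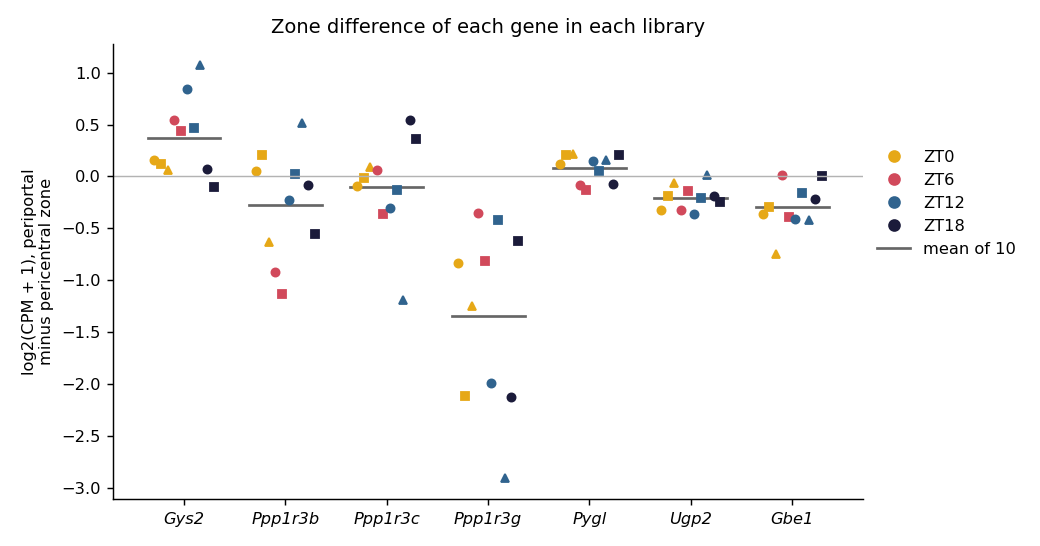
Difference between the periportal and the pericentral zone (y axis, log2(CPM + 1)) for the 7 genes (x axis); each point is 1 of 10 libraries, coloured by time, and bars are means of the 10 libraries. All 10 points of Ppp1r3g lie below 0 and 9 of 10 points of Gys2 lie above it.

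The remaining members did not pass the zone test. The log2 difference was -0.11 for Ugp2 (edgeR adjusted p = 0.23), 0.06 for Ppp1r3c (0.70) and -0.03 for Ppp1r3b (0.87). With library size alone Ugp2 (-0.21) passed and the sign for Ppp1r3c turned. The mitochondrial share of UMIs was higher in the periportal zone of all 10 libraries (15.4% pericentral and 20.7% periportal in ZT0B, 23.1% and 25.3% in ZT12A), and its part in the zone differences was not tested.

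In finer steps, with each library cut into 8 layers from central (1) to portal (8), Gys2 averaged 72.3 ± 33.6 CPM (SD, n = 10) in layer 1, 61.2 ± 33.7 in layer 2 and 99.2 ± 53.0 in layer 8. Ppp1r3g averaged 35.5 ± 27.5 CPM in layer 1, 43.9 ± 27.7 in layer 3 and 17.5 ± 22.4 in layer 8. By time, the highest layer mean of Ppp1r3g was in layer 2 at ZT0 (19.9 CPM) and ZT6 (74.0 CPM), in layer 3 at ZT12 (40.2 CPM) and in layer 1 at ZT18 (68.5 CPM). The level-weighted mean layer was 3.73 ± 0.40 (SD, n = 10) for Ppp1r3g, 4.74 ± 0.25 for Gys2 and 4.55 ± 0.08 for Pygl. The libraries of Ppp1r3g ranged from 3.17 to 4.30 and those of Gys2 from 4.37 to 5.16, so these ranges did not overlap.

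**Figure D4:**
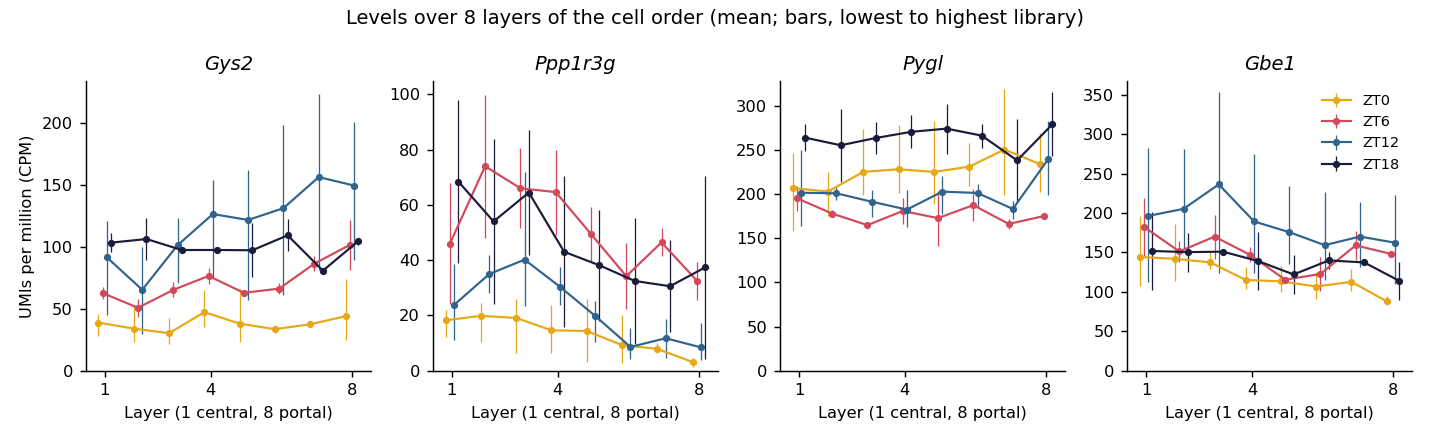
Level (y axis, CPM) over 8 layers from central to portal (x axis) for Gys2, Ppp1r3g, Pygl and Gbe1; points are means of the libraries of a time, vertical bars run from the lowest to the highest library, and colours are times. At ZT12 Gys2 goes from 91.4 CPM in layer 1 to 149 in layer 8, and at ZT0 Ppp1r3g goes from 18.3 to 3.16.

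By time, 5 of 28 zone comparisons of members passed the edgeR test, against 9.23% over all genes. Gys2 measured 45.7, 109.8 and 100.2 CPM in the pericentral and 82.5, 152.2 and 212.5 CPM in the periportal zones of ZT12A, ZT12B and ZT12C. The difference at ZT12 was 0.81 ± 0.14 on the log2 scale (edgeR adjusted p = 4.0e-05; 10% of all genes called at ZT12), called without any 1 library and lost in cells of at least 3000 UMIs (edgeR adjusted p = 0.099). At ZT6 it was 0.62 ± 0.18 (adjusted p = 0.024; 7.05% of all genes called by edgeR), a call lost without ZT6A or ZT6B (adjusted p up to 0.41). The ZT6 call was also lost with library size alone (edgeR adjusted p = 0.092), DESeq2 (adjusted p = 0.17), cells of at least 3000 UMIs (edgeR adjusted p = 0.28) and without the 5% of cells with the most UMIs (edgeR adjusted p = 0.057). At ZT0 it was 0.23 ± 0.15 (edgeR adjusted p = 0.41; 13.3% called) and at ZT18 0.06 ± 0.16 (edgeR adjusted p = 0.90; 6.52% called).

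Ppp1r3g measured 9.83, 25.2 and 22.1 CPM in the pericentral and 5.09, 5.03 and 8.70 CPM in the periportal zones of ZT0A, ZT0B and ZT0C, with no overlap. The log2 difference was -1.48 ± 0.33 at ZT0 (edgeR adjusted p = 0.0014) and -1.05 ± 0.33 at ZT12 (edgeR adjusted p = 0.036), the first lost without ZT0B (edgeR adjusted p = 0.11) and the second without ZT12A or ZT12C (edgeR adjusted p up to 0.44). Over single omissions the ZT12 difference ran from -2.66 (without ZT12B) to -0.57 (without ZT12C), and its call was also lost with a filter at 20 CPM, zones of 25% of the cells, cells of at least 3000 UMIs or without the 5% of cells with the most UMIs (edgeR adjusted p up to 0.27). At ZT6 it was -0.46 ± 0.28 (edgeR adjusted p = 0.44) and at ZT18 -0.90 ± 0.29 (edgeR adjusted p = 0.057). Gbe1 was lower in the periportal zone at ZT0 by -0.37 ± 0.12 (edgeR adjusted p = 0.029), a call lost without ZT0A, ZT0C or ZT18A (edgeR adjusted p up to 0.24), with DESeq2 (adjusted p = 0.24) and in cells of at least 3000 UMIs (edgeR adjusted p = 0.23).

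Whether a zone difference depends on the time was tested directly, and 0 of 7 members passed in edgeR, where 0.0784% of all genes did. The lowest adjusted p was that of Gys2 (edgeR adjusted p = 0.51), and 2 members, Gys2 and Ppp1r3c, had an unadjusted p under 0.05. DESeq2 also called 0 of 7. The zone differences of Gys2 at ZT12 and at ZT18 are therefore not shown to differ.

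Other genes around the pathway were counted from a list of 29, of which 27 were in the files and 20 above the filter. By edgeR's test among the 4 times 2 of 20 passed, against 6.58% of all genes, and both encode transporters. Slc2a2, the glucose transporter of the hepatocyte membrane, had means of 163 ± 25.9 and 254 ± 21.2 CPM (SD) at ZT0 and ZT6, of 443 ± 114.4 at ZT12 and of 175 ± 27.6 CPM at ZT18. It rose from ZT0 to ZT12 by 1.28 ± 0.23 on the log2 scale (edgeR adjusted p = 0.0066) and fell by 1.202 ± 0.27 from ZT12 to ZT18 (edgeR adjusted p = 0.021; 4.85% of all genes called). Slc37a4, which carries glucose 6-phosphate into the endoplasmic reticulum, went from 76.0 ± 10.53 CPM (ZT0) to 173 ± 17.3 CPM (ZT12), a log2 rise of 1.03 ± 0.20 (edgeR adjusted p = 0.0093). Both transporters were also called for a 24-h rhythm, and both rose over the interval in which Gys2 rose.

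From ZT12 to ZT18, Gyg, the protein primer of glycogen, fell by 1.39 ± 0.35 (edgeR adjusted p = 0.038) and Ppp1cc, a catalytic subunit of protein phosphatase 1, by 0.99 ± 0.21 (edgeR adjusted p = 0.018). Gyg was low, with means of 9.30 CPM at ZT12 and 3.01 CPM at ZT18, the latter near the filter of 3 CPM. Neither gene passed edgeR's test among the 4 times (adjusted p = 0.10 for Gyg and 0.053 for Ppp1cc). None of the 4 phosphorylase kinase subunits above the filter and none of the 4 synthase kinase and quality control genes passed in a comparison of times. Calls of listed genes that are not members were not repeated without single libraries.

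Between zones 8 of 20 genes of the list passed, against 24.8% of all genes. Higher in the periportal zone were Slc37a4 (log2 difference 0.52 ± 0.08), Slc2a2 (0.45 ± 0.07), Gckr (0.41 ± 0.10), Gaa, the lysosomal glucosidase (0.38 ± 0.09), and G6pc, which frees glucose from glucose 6-phosphate (0.28 ± 0.07). Lower there were Stbd1, which binds glycogen (-0.38 ± 0.09), Gsk3b, a kinase that inactivates the synthase (-0.32 ± 0.09), and Pgm2, a phosphoglucomutase (-0.18 ± 0.06). EdgeR's adjusted p was at most 0.035 for each. Stbd1, Gsk3b and Pgm2 were lower in the periportal zone in 10 of 10 libraries. Of the 5 genes for entry and exit of glucose 6-phosphate and the glucagon receptor, 4 were higher in the periportal zone and 0 lower.

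The genes most like each member were ranked by the root mean square difference of standardized levels over the 30 sums of 3 zones in 10 libraries, among 4340 genes. Gys2 was nearest to Mknk2 (0.59 SD), Tkfc (0.61) and Dusp3 (0.65), with a median over all genes of 1.34. Ugp2 was nearest to Nr1d2 (0.49), Bnip3 (0.51) and Tef (0.51); Nr1d2 and Tef are clock-linked transcription factors. Ppp1r3b was nearest to Idi1 (0.61), a gene of sterol synthesis, Rfk and Tfrc, the transferrin receptor. Ppp1r3c was nearest to Caprin1 (0.59), Ypel2 and Ddc, and Ppp1r3g to Acsm5 (0.70), Tbcel and Cyp27a1, an enzyme of bile acid synthesis. Pygl was nearest to Serpina3c (0.51), Mup9 and Rpl10, and Gbe1 to Eif5 (0.48), Acbd5 and Snx10. Among the members the nearest pair was Ugp2 and Gbe1 (0.79), and Ppp1r3c stood among the genes farthest from Gys2 (1.88, rank 4338 of 4340). These likenesses describe 30 sums that share libraries, and they were not tested.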

How the data were processed

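Single-cell RNA of hepatocytes in 10 libraries (version 2 of the 10x 3′ kit, as the labels' protocols state) was analysed from the UMI counts the authors deposited, whole numbers per gene and cell. The submitters' processing notes name Cell Ranger and the builds hg19 and mm10, with no role given; filters on cells, annotation and use of strand are not given in the sources used here. Headers number the cells rather than give barcodes, so shared barcodes could not be counted; no 2 cells had identical profiles. All cells were kept, and doublets were not called.

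Counts were summed per library, or per zone of its cells, and tested with edgeR 4.0.16 (quasi-likelihood, TMM, genes averaging 3 CPM or more, R 4.3.3), with Benjamini-Hochberg adjustment over all genes and a threshold of 0.05. SE is that of the log2 difference. The landmark score set the mean z-score of periportal genes (Ftcd, Pigr, Hsd17b13, Ctsc, Hal, Asl, Ass1, Cyp2f2) against that of pericentral ones (Rgn, Cyp1a2, Lect2, Aldh1a1, Mgst1, Gulo, Oat, Cyp2e1); across the cells of a library, scores from every other landmark and from the rest had r of 0.683 to 0.847. Plotted zone differences use log2(CPM + 1), where the added 1 shrinks differences of low genes. They are not the fitted values: the plotted mean of Ppp1r3g was -1.34, against -0.92 in edgeR.

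Libraries of a time differed beyond counting error (chi-square per degree of freedom 5.30 to 63.6). Deviations from the group means correlated between ZT0 and ZT12 libraries of the same letter (r = 0.293 for A, 0.516 for B, 0.627 for C), so the letter in the titles was taken to pair them; those pairs also share the index number. Other times share only the letters A and B, and their same-letter r ran from -0.111 (ZT0A and ZT6A) to 0.210 (ZT12A and ZT18A). The letter block was fitted over all libraries, so ZT6 and ZT18 libraries were blocked by letter too. These correlations give that part of the block little basis.

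The members, the other pathway genes and the tests were chosen with earlier results of these data known; 1 entry of the member list and 1 other pathway gene are not reported here. All 7 members were named, other listed genes where they passed a test, and the 3 genes nearest each member. Alternatives were DESeq2 1.42.0, library size alone, other filters and cell sets, the letter or index number as a block, and leaving out each library.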

Additional observations from a re-analysis of the deposited data

Results flagged for a closer look

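The zone differences below are periportal minus pericentral zones on the log2(CPM + 1) scale, without TMM factors. Over the 10 libraries, that of Ppp1r3c had 1 library far from the others: -1.19 in ZT12C, from 73.6 to 31.6 CPM (47 and 21 UMIs), against -0.36 to 0.54 in the other 9. Ppp1r3c was lower in the periportal zone in all 3 ZT12 libraries and higher in both ZT18 libraries, so that the mean difference at ZT12 was 0.99 below that at ZT18 (-0.992). Pygl was higher in the periportal zone in all ZT0 and ZT12 libraries and lower in both ZT6 libraries; its mean difference at ZT0 was 0.285 above that at ZT6, and at ZT6 it stood at -0.225 relative to ZT12. With TMM factors the difference of Pygl at ZT6 was 0.012 ± 0.15 in edgeR, so its direction there depends on the scaling.

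None of these contrasts between a pair of times was itself tested. The edgeR test of zone by time over all 4 times called neither gene: its adjusted p was 0.76 for Ppp1r3c (unadjusted p = 0.030) and 0.96 for Pygl. By chance alone about 5% of groups hold a library marked as far from the others.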

How the results depend on the processing

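Tallied were member results with a direction that the main edgeR fit called. Tests among the times and of a 24-h rhythm were tallied where any setting called them. Alternatives other than leaving out a library gave the same direction and side of the threshold 162 times. They gained a call 16 times and lost one 23 times, and no direction of a called result turned. Results with a direction that the main fit did not call were left out, so calls they gained are not counted. Among these are the time pairs of Ppp1r3g and Ppp1r3c gained under the block. Leaving out each library kept 190, gained 5 and lost 55. The zone calls of Gys2 and Ppp1r3g and the rise of Gys2 from ZT0 to ZT12 held under every alternative and omission run on them.

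Where the count of members moved, the cause was not tested. Members differing among the 4 times went from 3 to 5 with no filter and with the replicate block, and to 1 to 3 over the single omissions. The 24-h rhythm went from 1 to 2 with library size alone, to 3 with DESeq2, no filter and the replicate block, and to 0 to 2 over omissions. The 12-h contrast went from 1 to 2 with DESeq2, no filter and the block, and to 0 to 2 over omissions. Time pairs went from 6 of 42 to 12 with no filter and 14 with the block, and to 2 to 7 over omissions; among ZT0, ZT6 and ZT12 alone they were 4, and 9 with the replicate block. Zone calls went from 4 to 2 with DESeq2, no filter, zones of 25% of the cells and cells of at least 3000 UMIs, and to 2 to 4 over omissions. Zone calls by time went from 5 to 3 with DESeq2 and 2 with cells of at least 3000 UMIs. Over all genes, the calls at a time were 582 to 1190 of 8923, 297 to 538 with DESeq2 and 116 to 922 of 8910 in those cells. The letters were taken to pair only ZT0 with ZT12, while the block also grouped the ZT6 and ZT18 libraries by letter. Of the pairs gained under the block, 4 were of Ppp1r3g (all but ZT12 against ZT0 and ZT18 against ZT6), 3 of Ppp1r3c (ZT0 against each other time) and 1 of Gys2 (ZT6 against ZT0); it changed no call other than these and those in the report.

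Over all genes, calls among the 4 times were 586 of 8908, 989 with the block and 1071 of 14278 with no filter. Rhythm calls were 458 of 8908, 420 with library size alone, 792 with DESeq2, 749 with the block and 710 of 14278 with no filter. Calls of the 12-h contrast were 45 of 8908, 91 with DESeq2, 84 with the block and 140 of 14278 with no filter. Zone calls were 2210 of 8923, 1621 with DESeq2 and 2339 of 14096 with no filter. They were 2172 of 8943 with zones of 25% of the cells and 1231 of 8910 with cells of at least 3000 UMIs. Each pair of times held 53 to 432 calls of 8908 genes, and 138 to 688 of 14278 with no filter. Depth limits the low values, such as those of Ppp1r3b in ZT6A and ZT6B (56 and 23 UMIs) and of Ppp1r3g in ZT0A and ZT12A (38 and 25 UMIs).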

Other observations

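At ZT6 and at ZT18 the library with more Ppp1r3c had less Ppp1r3g. At ZT6 Ppp1r3c measured 56.1 CPM in A and 19.3 in B, while Ppp1r3g measured 37.8 and 64.9 CPM. At ZT18 Ppp1r3c measured 56.3 and 27.8 CPM, while Ppp1r3g measured 20.1 and 70.6 CPM. At the other times the order was mixed. At ZT0 both genes were higher in B than in A, while C had the least Ppp1r3c (119.9 CPM) and the most Ppp1r3g (19.4 CPM). At ZT12 both were higher in C than in B, while A had the most Ppp1r3c (73.6 CPM) and the least Ppp1r3g (17.2 CPM). The ZT6 and ZT18 values are those of 2 libraries at each time, with no test.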
